A study of Mus musculus with 16 samples.

Results

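The BCL2 family comprises the proteins that set the threshold for mitochondrial apoptosis. Among the 46078 genes counted in these libraries, 10 were taken as its members: the BH3-only genes Bmf, Bcl2l11, Bid, Bbc3 and Pmaip1, the anti-apoptotic genes Bcl2, Bcl2l1 and Mcl1, and the effectors Bax and Bak1. The set was chosen by gene family, and the family was selected on the polyA values of Bmf, which was among the largest rises after miR-106b, so its change there is given as a description without a test. All 10 members passed the filter on low counts, which 14897 genes passed. The libraries are labelled as juxtaglomerular (JG) cells, which line the afferent arteriole of the kidney and secrete renin, kept in culture and engineered to carry yellow fluorescent protein (YFP) under the renin promoter. Cells of the control groups received a non-mammalian microRNA precursor and cells of the other groups received miR-106b, and RNA was prepared 48 h later. PolyA mRNA was sequenced from 4 control and 4 miR-106b cultures, and RNA co-precipitated with Ago2 (Ago2-IP) was sequenced from another 4 and 4 cultures. All 4 groups therefore carried the YFP reporter and a transfected small RNA. The animals' strain and age are not given in the sources used here, and the reporter marks cells by an active renin promoter only.

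In the intrinsic pathway of apoptosis, Bax and Bak1 permeabilise the outer mitochondrial membrane and release cytochrome c, which starts caspase activation through Apaf1. Bcl2, Bcl2l1 (Bcl-xL) and Mcl1 hold the effectors and the BH3-only proteins in check. BH3-only proteins relay particular stresses: Bmf is held at the cytoskeleton through dynein light chain Dynll2 and responds to loss of anchorage, Bcl2l11 (Bim) responds to loss of growth factors, Bid links death receptors to mitochondria, and Bbc3 (Puma) and Pmaip1 (Noxa) are targets of p53. Ago2 is the microRNA-loaded subunit of the silencing complex, so RNA recovered with it is enriched for transcripts held by microRNAs. The comparisons asked which transcripts changed with miR-106b in polyA RNA, in Ago2-IP RNA and in the ratio of Ago2-IP to polyA level.

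Libraries held between 2579086 and 9459585 gene counts. Levels are normalized counts per 1000000 (CPM), scaled by the trimmed mean of M-values within polyA or Ago2-IP libraries. At these depths 3 counts, the most that a count of 0 allows, corresponded to between 0.317 and 1.16 CPM, which covers counting error only. Ren1, the renin gene that defines JG cells, was at 0 in every library, whereas transcripts of cardiac muscle were abundant, so the data go against the cell type label. The summed level of 25 cardiac muscle markers was 22449 to 32069 CPM in polyA control, 44998 to 77939 CPM in polyA miR-106b and 100402 to 109469 CPM in the Ago2-IP libraries, and none of the 25 was at 0. Of 24 cardiac markers tested, 23 rose in polyA RNA with miR-106b, where 19% of all tested genes rose. Endothelial markers (6 of 7) and leukocyte and blood markers (7 of 8) also rose, and of 8 juxtaglomerular and mural markers tested 5 rose and 1 fell, with a summed level of 1397 to 1579 CPM in polyA control and 1237 to 1744 CPM in polyA miR-106b. In bulk RNA, fewer cells of a type and less RNA per cell cannot be told apart.

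The transfected microRNA and the sites it could pair with are shown first, because the seed is the part of a microRNA that selects its transcripts. In the RefSeq sequences (GRCm38 coordinates), mature miR-106b-5p lies at chr5:138165787-138165807 on the minus strand. Its seed, bases 2 to 8 counted from the 5′ end and in capitals below, is shared with 6 other mouse microRNAs, of which miR-17-5p, miR-20a-5p and miR-93-5p are shown for comparison.
miR-106b-5p: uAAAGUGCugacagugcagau
miR-17-5p: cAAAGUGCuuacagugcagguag
miR-20a-5p: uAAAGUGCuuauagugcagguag
miR-93-5p: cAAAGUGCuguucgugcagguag

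The longest annotated 3′ untranslated region (3′UTR) of each member was searched on the transcript strand for GCACTTT (7mer-m8), CACTTTA (7mer-A1) and GCACTTTA (8mer, which contains both and was counted once). Of the 10 members 5 held a match, compared with 22.2% of the 13222 tested genes that had an annotated 3′UTR. The members' 3′UTRs were longer, with a median of 1834.5 bases against 1222 for all of these genes, and the 5 with a match had a median of 3801 bases. Bcl2l11 and Mcl1 each held 2 matches, one of them an 8mer, and Bmf, Bcl2 and Bid held 1 each. No such match was present in this window of Bcl2l1, Bax, Bak1, Bbc3 or Pmaip1, although Bcl2l1 had one in another annotated 3′UTR. The matches are printed with flanking bases, in capitals for the letters of the motif (the last A of CACTTTA and GCACTTTA is part of the motif but is not paired with the seed), for the members whose values follow.
Bmf, chr2:118529727-118529733, minus strand, 7mer-m8: ggggagggtggGCACTTTgcctggccctgt
Bcl2l11, chr2:128159778-128159784, plus strand, 7mer-m8: ctggtggaggaGCACTTTctaacctgtgga
Bcl2l11, chr2:128160452-128160459, plus strand, 8mer: ccccgactggaGCACTTTActgtctcagcc
Bcl2, chr1:106540041-106540047, minus strand, 7mer-m8: cagttaagggaGCACTTTcatgtagttcaa
Mcl1, chr3:95662643-95662650, plus strand, 8mer: cggacttcagaGCACTTTAtgtagttgaat
Mcl1, chr3:95663065-95663071, plus strand, 7mer-A1: agagcacctaaCACTTTAacagctgttccc
Bid, chr6:120892909-120892915, minus strand, 7mer-m8: caagagtgcatGCACTTTtagaatatgaaa
A match of letters is a description and not a bound site.

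**Figure D1:**
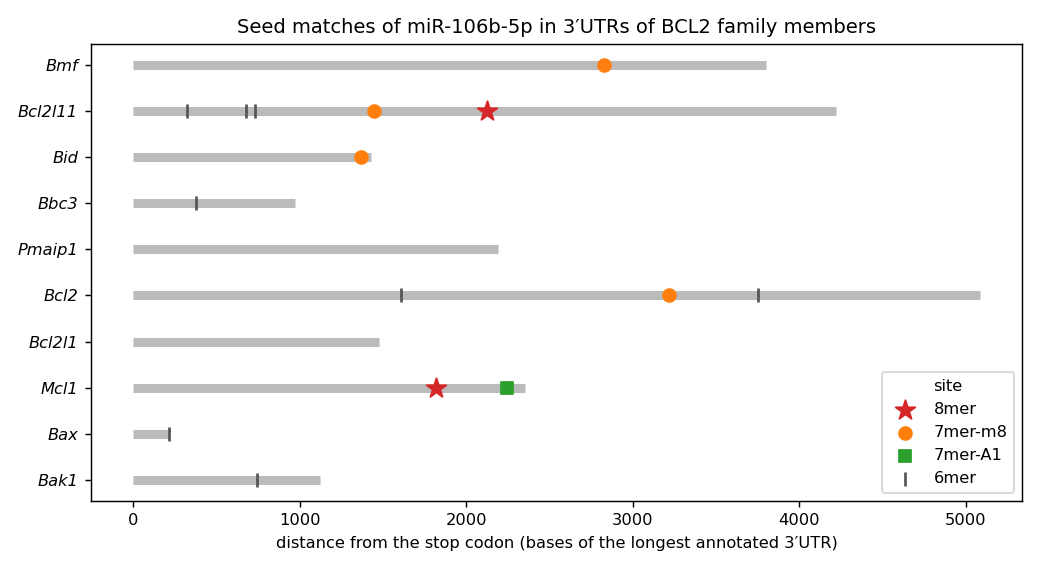
Position of each seed match of miR-106b-5p along the longest annotated 3′UTR of the 10 members (horizontal axis, bases from the stop codon; grey bars, the 3′UTR). The match in Bmf begins at base 2825 of 3801, the matches in Mcl1 lie at bases 1820 and 2242 of 2353, and 6mer matches (CACTTT alone) are drawn separately.

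In polyA control cells the effectors and Mcl1 were the most abundant members per length. Per kilobase of annotated exon, Bax stood at 69.2 ± 8.70 CPM (SD, n = 4), Mcl1 at 54.1 ± 4.30 and Bak1 at 53.2 ± 3.82, and libraries of neighbours in this order overlapped. Bcl2l1 followed at 27.2 ± 0.893 CPM per kilobase and Bbc3 at 18.8 ± 0.684, each apart from its neighbours. Among the remaining BH3-only genes, Bid (6.52 ± 0.949) and Bcl2l11 (4.47 ± 1.11) overlapped, and Bmf was at 2.71 ± 0.287. Bcl2 itself was low at 1.47 ± 0.224 CPM per kilobase, and Pmaip1 was lowest at 0.687 ± 0.194. For Bax, Bak1, Bid and Bcl2 the length includes exon bases shared with other genes, which was not corrected for. Among the anti-apoptotic members, Bcl2l1 and Mcl1 stood above Bcl2 per length in these cultures. Other anti-apoptotic genes such as Bcl2l2 were not placed in this order.

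**Figure D2:**
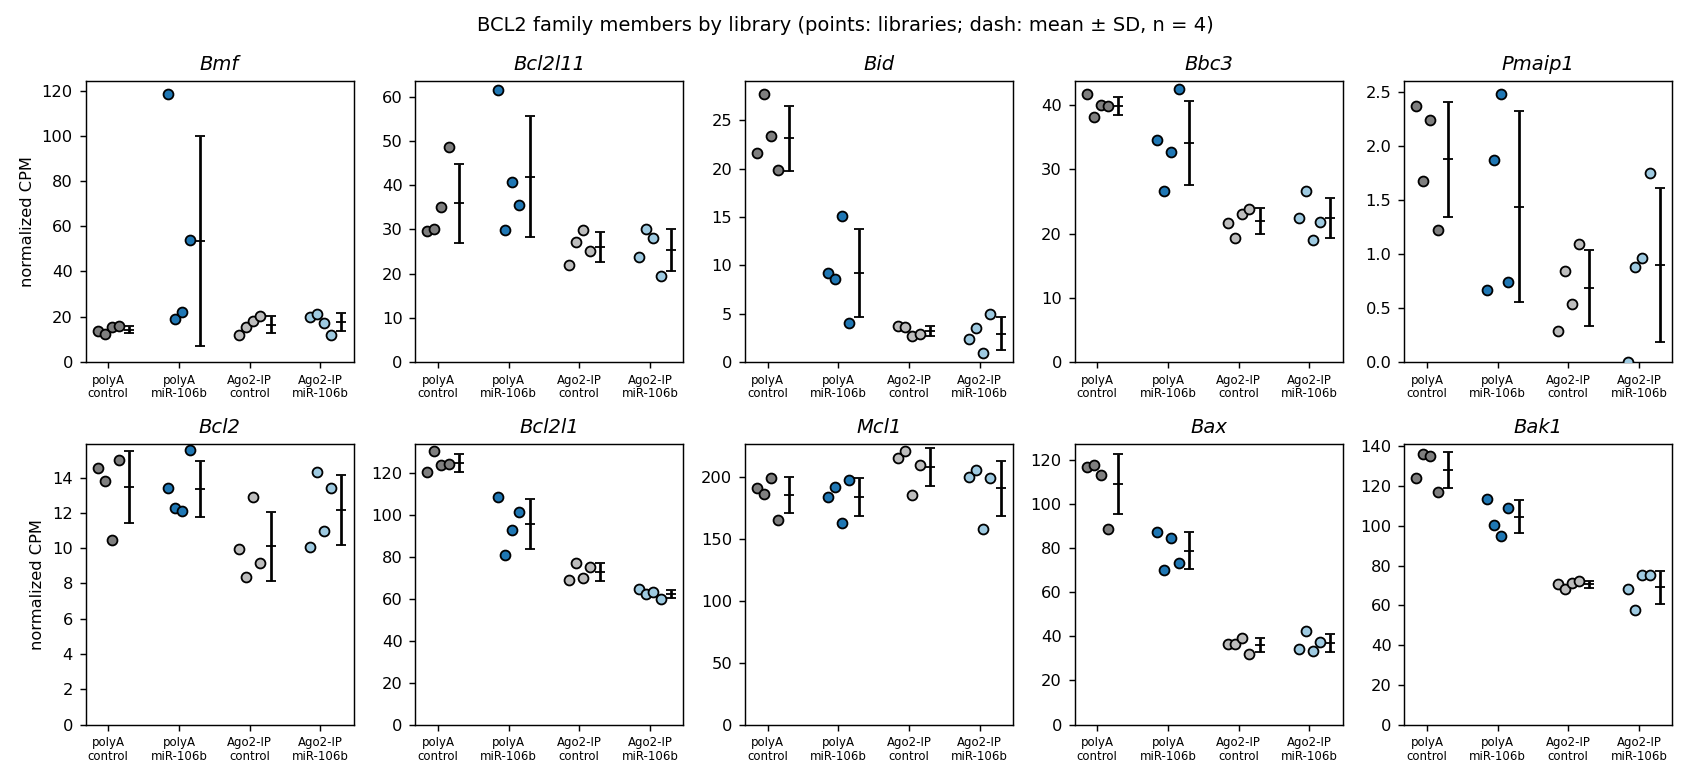
Normalized CPM of each member in the 16 libraries, 1 panel a gene, with points for libraries and a dash with bars for the mean ± SD of 4 libraries in each group. In polyA RNA the miR-106b libraries of Bmf spread from 19.0 to 118.7 CPM above a tight control group, while those of Bid, Bcl2l1, Bax and Bak1 lie below every control library.

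Among BH3-only genes in polyA RNA, Bmf was high and widely spread after miR-106b and Bid was low. Bmf (chr2:118528757-118549687, minus strand) measured 13.6, 12.5, 15.3 and 15.7 CPM in the 4 polyA control libraries and 118.7, 19.0, 22.0 and 54.1 CPM in the 4 polyA miR-106b libraries. The groups did not overlap, but replicates 1 and 4 stood far above replicates 2 and 3, and replicate 1 alone held 531 of the group's 828 Bmf counts. The mean went from 14.3 ± 1.51 to 53.4 ± 46.3 CPM (SD, n = 4), a fitted log2 fold change of 1.92. Of 10917 genes with a mean of 5 CPM or more this was the rise of rank 3, with Angpt4 at 2.41 among those above and Npr3 at 1.88 next below. The rank was 66 (log2 1.44) in edgeR's likelihood ratio test, 19 (1.56) with the replicate number as a block and 1 with at least 10 counts required in every library. Without polyA miR-106b replicate 1 the log2 fold change was 1.19 and the rank 982, and without any other single library it lay between 1.93 and 2.21.

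**Figure D3:**
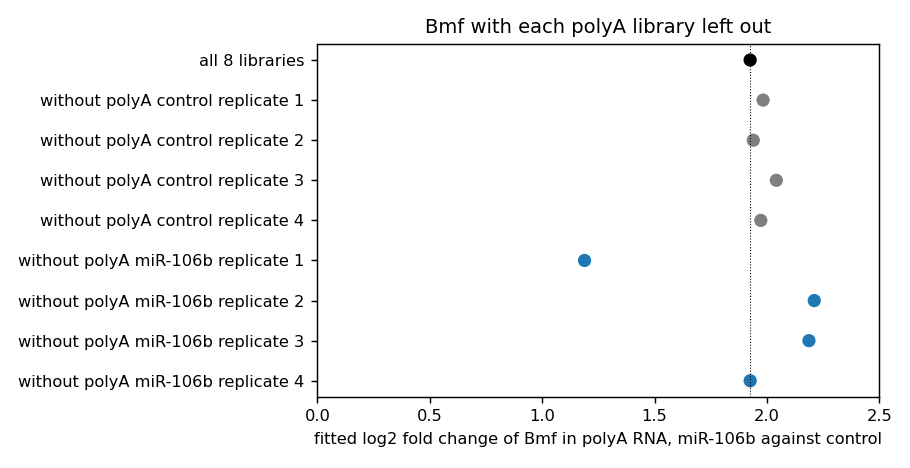
Fitted log2 fold change of Bmf in polyA RNA (horizontal axis) with all 8 libraries and with each library left out in turn (rows). All settings give a positive value; leaving out polyA miR-106b replicate 1 gives 1.19, and the others lie between 1.93 and 2.21.

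Bid fell in polyA RNA, in the opposite direction to Bmf. Bid (chr6:120891930-120916853, minus strand) measured 21.6, 27.7, 23.3 and 19.9 CPM in polyA control and 9.16, 8.54, 15.1 and 4.07 CPM in polyA miR-106b. Every miR-106b library lay below every control library. The level dropped to 40.6% of control, a log2 fold change of -1.30 (SE 0.262, 95% interval -1.87 to -0.74, adjusted p = 0.0020 in edgeR's quasi-likelihood test). The exact two-sided permutation test gave p = 0.0286, the smallest that 70 relabellings of 4 against 4 allow. Bid's annotated exons share 628 bases with Bcl2l13 on the opposite strand, outside its seed match, and since the libraries do not keep strand, reads there cannot be told apart.

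The other 3 BH3-only genes did not pass the test in polyA RNA. Bcl2l11 (chr2:128126038-128162547, plus strand) measured 29.7, 30.2, 35.0 and 48.7 CPM in control and 61.5, 29.9, 40.8 and 35.5 CPM in miR-106b libraries. Its groups overlapped, and the highest value was in the same miR-106b library, replicate 1, that was highest for Bmf. The log2 fold change was 0.24 (SE 0.218, 95% interval -0.23 to 0.71, adjusted p = 0.407 in edgeR). Bbc3 ranged from 38.1 to 41.7 CPM in control and from 26.7 to 42.6 CPM after miR-106b, which gave a log2 fold change of -0.23 with an interval of -0.53 to 0.07 (adjusted p = 0.203 in edgeR). Its 4 control libraries lay close together, whereas the miR-106b libraries fell on both sides of them. Pmaip1 had 7 to 16 counts in control and 2 to 9 counts in miR-106b libraries, and at this depth its log2 fold change of -0.37 had an interval of -1.37 to 0.62 (adjusted p = 0.545 in edgeR).

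Of the anti-apoptotic genes, Bcl2l1 fell in polyA RNA whereas Bcl2 and Mcl1 did not pass the test. Bcl2l1 (chr2:152780668-152831728, minus strand) measured 120.9, 130.7, 124.0 and 124.3 CPM in the control group and 108.6, 80.9, 92.8 and 101.8 CPM in the miR-106b group. All 4 miR-106b libraries lay below the control libraries. The log2 fold change was -0.38 (SE 0.111, 95% interval -0.62 to -0.14, adjusted p = 0.0155 in edgeR, exact permutation p = 0.0286), or 76.8% of control. Mcl1 (chr3:95658788-95663176, plus strand), which holds the 8mer printed above, measured 190.6, 185.9, 199.2 and 164.6 CPM in control libraries and 183.9, 191.4, 162.2 and 197.3 CPM after miR-106b. Its groups overlapped almost fully, and the log2 fold change of -0.01 had a 95% interval of -0.24 to 0.22 (adjusted p = 0.944 in edgeR). Bcl2 (chr1:106538178-106714274, minus strand) measured 14.5, 13.8, 10.5 and 15.01 CPM in control libraries and 13.4, 12.3, 12.1 and 15.5 CPM after miR-106b. Its log2 fold change was -0.02, with an interval of -0.39 to 0.35 (adjusted p = 0.942 in edgeR). The sign of the Bcl2 and Mcl1 values changed with the scaling, to 0.05 and 0.06 with DESeq2 size factors. Exons of Bcl2 share 558 bases with the antisense transcript D630008O14Rik, which these libraries cannot separate.

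Both effectors fell in polyA RNA in the edgeR test, Bak1 with a call that most alternatives did not keep. Bax (chr7:45461697-45466898, minus strand) measured 116.6, 117.7, 113.1 and 88.7 CPM in the control group and 87.4, 70.2, 84.5 and 73.3 CPM in the miR-106b group. Control replicate 4 was the low library of its group, and the highest miR-106b library lay just below it. The log2 fold change was -0.47 (SE 0.124, 95% interval -0.73 to -0.20, adjusted p = 0.0097 in edgeR, exact permutation p = 0.0286), or 72.4% of control. Bak1 (chr17:27019810-27029009, minus strand) measured 124.2, 136.2, 135.1 and 117.0 CPM in control libraries and 113.5, 100.7, 95.01 and 109.2 CPM after miR-106b. Its groups did not overlap either, with a log2 fold change of -0.29 (SE 0.105, 95% interval -0.52 to -0.07, adjusted p = 0.0400 in edgeR, exact permutation p = 0.0286). The Bak1 call was lost with DESeq2 size factors, with no filter, in DESeq2's Wald test, with the replicate block and with all 16 libraries in 1 fit (adjusted p = 0.0689 to 0.174). Parts of Bax exons are shared with Gm45808 and parts of Bak1 exons with Ggnbp1. The ratio of Bax to Bcl2 counts, a common index of the balance between effector and guardian, was 8.03, 8.52, 10.8 and 5.91 in polyA control and 6.52, 5.72, 6.98 and 4.71 in polyA miR-106b libraries, and the groups overlapped.

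Across the 9 members other than Bmf, 4 fell and 0 rose in polyA RNA, where 40.5% of all tested genes passed the test (19% higher and 21.5% lower). The split over all genes, 2836 higher and 3198 lower, became 3163 and 2642 with DESeq2 size factors and 3828 and 2410 with all 16 libraries in 1 fit. The 4 that fell span 3 roles, namely a BH3-only gene, a guardian and both effectors. The median log2 fold change of the 9 was -0.29, and that of all tested genes was -0.05. Groups did not overlap for the same 4 members, compared with 38.3% of all tested genes (16.7% with miR-106b higher and 21.6% with it lower). Leaving out polyA control replicate 1, 2 or 3 reduced the 4 calls to 1, Bid: the adjusted p in edgeR became 0.0848, 0.130 and 0.103 for Bcl2l1, 0.0879, 0.0956 and 0.0836 for Bax, and 0.197, 0.305 and 0.298 for Bak1. Over all genes the lower calls dropped from 3198 to 1826, 1636 and 1705 without these libraries. Bak1 also lost its call without polyA miR-106b replicate 2, 3 or 4 (0.0866, 0.0846 and 0.0506).

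The cardiac level was higher in every polyA miR-106b library than in every polyA control library, so no pair of libraries from the polyA groups at a matched cardiac level could be compared. Within polyA miR-106b, replicates 1 to 4 had cardiac levels of 44998, 77939, 53183 and 77294 CPM. Bax was lower in replicates 2 and 4, with the higher cardiac levels, than in replicates 1 and 3. Bid was likewise lower in replicates 2 and 4, at 8.54 and 4.07 CPM, than in replicates 1 and 3, at 9.16 and 15.1. Bcl2l1 and Bak1 were not split that way. In replicates 1 to 4 Bcl2l1 was at 108.6, 80.9, 92.8 and 101.8 CPM and Bak1 at 113.5, 100.7, 95.01 and 109.2. Both were highest in replicate 1, which had the lowest cardiac level. For Bmf, replicates 1 to 4 were at 118.7, 19.0, 22.0 and 54.1 CPM. The part of the cardiac level in the falls of Bid, Bax, Bcl2l1 and Bak1 and in the level of Bmf was not tested.

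**Figure D4:**
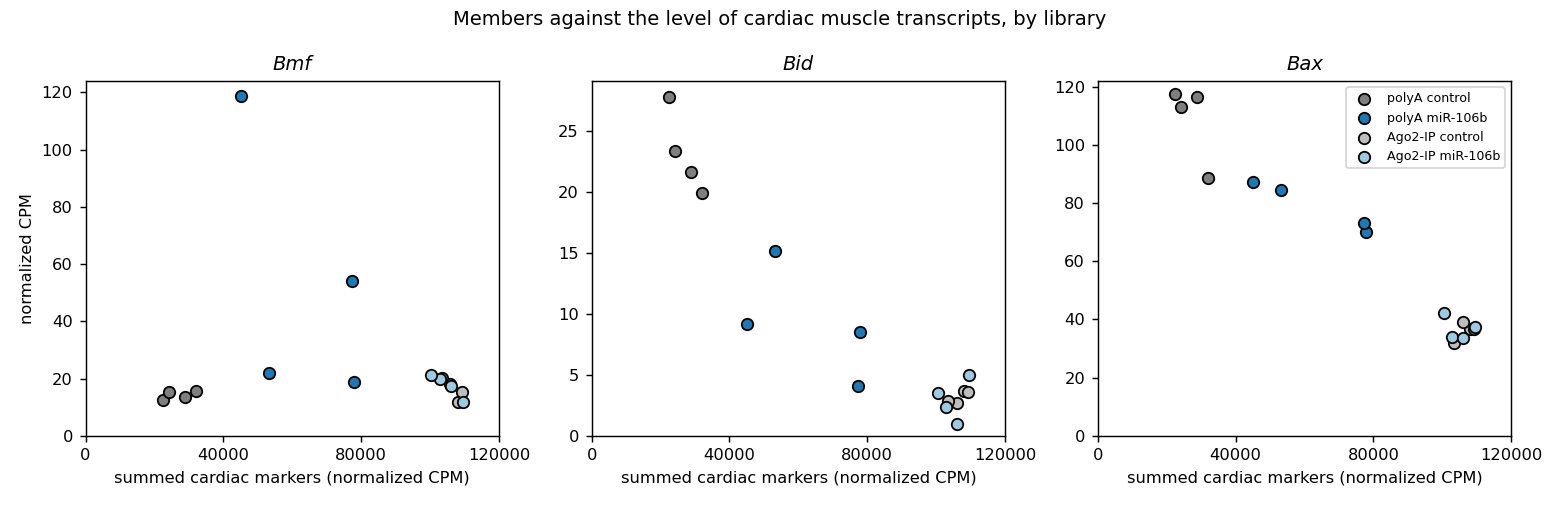
Normalized CPM of 3 members (vertical axis) against the summed level of 25 cardiac muscle markers (horizontal axis, normalized CPM), with 1 point a library and colours for the 4 groups. The polyA control libraries lie at 22449 to 32069, the polyA miR-106b libraries at 44998 to 77939 and the Ago2-IP libraries at 100402 to 109469 on the horizontal axis, and polyA and Ago2-IP levels were scaled separately.

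In Ago2-IP RNA none of the 10 members passed the test with miR-106b, nor did any tested gene (0% called in edgeR's quasi-likelihood test). At an unadjusted p under 0.05, 1 member and 827 of all tested genes were found, and over all genes DESeq2 called 2 and edgeR's likelihood ratio test 18. Over all genes edgeR called 12 higher and 8 lower with no filter, 36 higher and 4 lower without Ago2-IP miR-106b replicate 4, 5 and 5 without Ago2-IP control replicate 4, and 0 and 4 without Ago2-IP miR-106b replicate 1. Bmf measured 11.95, 15.4, 18.3 and 20.3 CPM in Ago2-IP control and 19.8, 21.3, 17.4 and 11.9 CPM in Ago2-IP miR-106b libraries. Its groups overlapped fully, and the log2 fold change was 0.08 (95% interval -0.28 to 0.43, adjusted p = 0.978 in edgeR). Both Ago2-IP groups thus covered the same range of Bmf levels.

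Bcl2l1 was the member with the smallest p in Ago2-IP RNA. It measured 68.9, 77.3, 69.9 and 75.3 CPM in the control group and 64.7, 62.2, 63.2 and 59.9 CPM in the miR-106b group. The groups did not overlap, which held for 3.26% of all tested genes (1.56% with miR-106b higher and 1.7% with it lower). The log2 fold change was -0.22 (95% interval -0.39 to -0.05, unadjusted p = 0.0105 and adjusted p = 0.723 in edgeR), so the difference did not hold after adjustment over all genes.

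The remaining members lay within overlapping ranges in Ago2-IP RNA. Mcl1 measured 215.4, 220.6, 185.4 and 209.4 CPM in control and 199.9, 205.1, 157.9 and 199.0 CPM after miR-106b. Its log2 fold change was -0.12, with an interval of -0.28 to 0.03 (adjusted p = 0.899 in edgeR). Bcl2 ranged from 8.38 to 12.9 CPM in control and from 10.1 to 14.3 with miR-106b, with a log2 interval of -0.13 to 0.70. For the effectors the log2 intervals were -0.19 to 0.27 for Bax and -0.20 to 0.14 for Bak1. Among BH3-only genes, Bcl2l11 had an interval of -0.32 to 0.25 and Bbc3 one of -0.26 to 0.32, while Bid, at 3 to 17 counts a library, had one of -0.95 to 0.75. Pmaip1 had 1, 3, 2 and 5 counts in control and 0, 3, 3 and 6 counts with miR-106b, which is too near the limit of detection for a fold change. The median log2 fold change of the 10 members was 0.00, as was that of all tested genes.

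**Figure D5:**
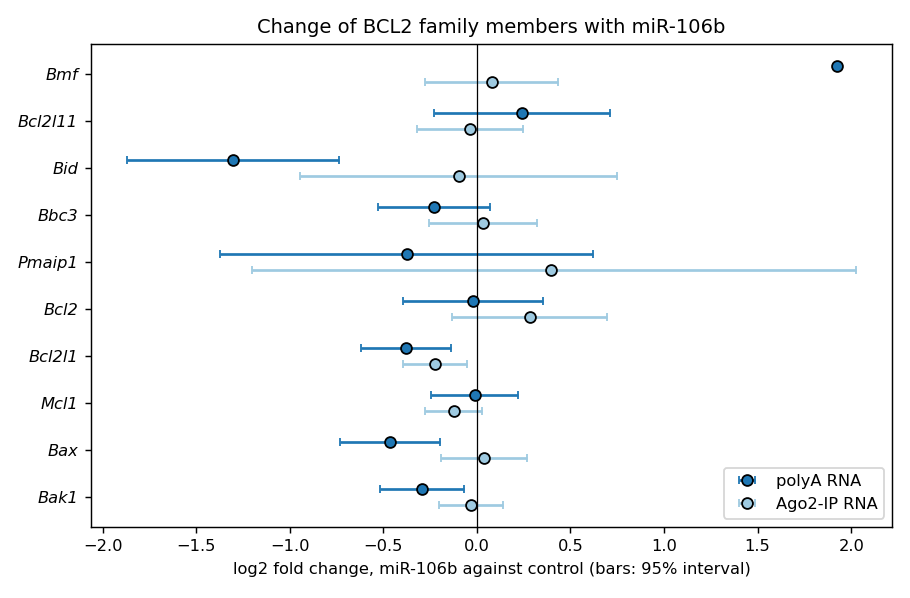
Fitted log2 fold change of each member with miR-106b against control (horizontal axis, bars: 95% interval) in polyA and Ago2-IP RNA. Bid, Bax, Bcl2l1 and Bak1 lie below 0 in polyA RNA with intervals that exclude 0, and in Ago2-IP RNA the intervals of all members except Bcl2l1 include 0.

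The ratio of Ago2-IP to polyA level sets Ago2-IP RNA against polyA RNA from other cultures. Summed cardiac markers were at 22449 to 32069 CPM in polyA control and 44998 to 77939 CPM in polyA miR-106b. In the Ago2-IP libraries they stayed between 100402 and 109469 CPM. A changed association with Ago2 therefore cannot be told apart from a change in the polyA cultures. Of the 9 members whose change was not used to choose the set, 0 passed the test for a change of this ratio with miR-106b in edgeR, compared with 27.3% of all tested genes (7.62% higher and 19.7% lower). With scaling by library size alone the split over all genes went from 1135 higher and 2937 lower to 1991 and 2311. At an unadjusted p under 0.05 there were 2, Bid at 1.07 (95% interval 0.05 to 2.1, adjusted p = 0.115) and Bax at 0.36 (0.01 to 0.70, adjusted p = 0.116). Both are genes whose polyA level fell while the Ago2-IP level had an interval across 0. Bcl2l11 and Mcl1, the members with an 8mer, had values of -0.43 (-1.02 to 0.17, adjusted p = 0.292) and -0.26 (-0.54 to 0.03, adjusted p = 0.173) in edgeR. Bcl2l11 was at -0.17 without polyA miR-106b replicate 1, and Mcl1 was at -0.14 without polyA miR-106b replicate 2. With scaling by library size alone they were at -0.26 and -0.09, and Bax was called at 0.52 (adjusted p = 0.0222 in edgeR). For Bmf the fitted change was -1.99, given as a description since it contains the polyA rise, and it was -1.18 without polyA miR-106b replicate 1.

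In control cells, 6 of the 9 members other than Bmf differed between Ago2-IP and polyA RNA in edgeR, where 69.7% of all tested genes did (35.1% higher and 34.6% lower). Mcl1 was the only one higher, with a log2 difference of 0.47 (95% interval 0.27 to 0.67, adjusted p = 0.00015). The 5 lower members were Bid at -2.55 (-3.19 to -1.92), Bax at -1.29 (-1.53 to -1.05), Bak1 at -0.56, Bbc3 at -0.55 and Bcl2l1 at -0.47, and both effectors are among them. Bmf stood at 0.53, given as a description without a test, since its polyA values were used to choose the family. In the same groups summed cardiac markers were at 22449 to 32069 CPM in polyA control and 103330 to 109316 CPM in Ago2-IP control. Endothelial (360 to 484 against 1278 to 1336) and leukocyte and blood markers (148 to 213 against 636 to 655) were also higher in Ago2-IP control. Juxtaglomerular and mural markers were lower (1397 to 1579 against 998 to 1027). Cell content and RNA kind cannot be told apart in these member differences. The differences also depend on how polyA and Ago2-IP libraries are placed on a common scale. With scaling by library size alone the median of all tested genes moved from -0.03 to -0.35, 8 members were lower and 0 higher while over all genes 6781 were lower and 4145 higher (5157 and 5224 before), and Mcl1 was at 0.15 (adjusted p = 0.132 in edgeR). Order by level per length placed Mcl1 first in Ago2-IP control, at 60.8 ± 4.55 CPM per kilobase (SD, n = 4), above Bak1 at 29.3 ± 0.720 and Bax at 22.9 ± 1.94.

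The 5 genes whose polyA pattern was most like that of Bmf over the 8 polyA libraries, among 10916 compared, were Pid1, Adgrl2, Grn, Hexa and Hic1. Their Pearson correlations with Bmf lay between 0.980 and 0.986 on the log2 scale, as a description of libraries that share the same treatment and the same outlying replicates. Grn, which encodes progranulin, measured 336.0, 329.2, 325.0 and 368.0 CPM in control libraries and 578.8, 357.5, 365.7 and 488.7 CPM after miR-106b. Hexa, the alpha subunit of lysosomal hexosaminidase, was likewise highest in miR-106b replicates 1 and 4 at 229.5 and 194.0 CPM and lower in replicates 2 and 3 at 122.5 and 118.7. Since these genes were picked for their likeness to Bmf over these libraries, the shared pattern of the replicates is fixed by that choice. Of the 8 other members with a mean of 5 CPM or more, Bcl2l11 was nearest to Bmf with a correlation of 0.68, and Bid was farthest at -0.73.

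The wider apoptosis pathway was followed with 58 other genes in 5 lists, of which 50 passed the filter, and 9 of these rose and 13 fell in polyA RNA, against 40.5% called among all genes. With all 16 libraries in 1 fit 14 rose and 13 fell, where 3828 and 2410 of all genes did. Without polyA miR-106b replicate 2 the split was 6 and 12, beside 2399 and 2647 of all genes. The median log2 fold change of the 50 was -0.08 in the main fit, beside -0.05 for all tested genes. In Ago2-IP RNA 0 of the 50 passed the edgeR test, with 4 at an unadjusted p under 0.05. The ratio of Ago2-IP to polyA rose for 4 and fell for 9 of the 50, where 27.3% of all genes were called, but with scaling by library size alone 8 rose and 6 fell, beside the like move of the split over all genes given above.

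A list of further BCL2 family genes, together with Vdac2 and Mtch2, which are not family members, held 17 genes. Of these 11 were tested, and 3, Vdac2 among them, rose while 1 fell in polyA RNA. Among all tested genes 40.5% were called (19% higher and 21.5% lower). Bok, an effector-like relative of Bax and Bak1, fell from 44.3 ± 5.68 to 24.5 ± 6.04 CPM (SD, n = 4), or -0.84 on the log2 scale (adjusted p = 0.0020, edgeR). Bnip3, a mitophagy receptor, and Vdac2, the outer membrane channel that binds Bak1, rose by 0.53 and 0.42 on the log2 scale. Bik, a BH3-only gene, had a fitted log2 difference of 0.78, which did not pass the test (adjusted p = 0.0541, edgeR), at 1.89 to 5.55 CPM across the polyA libraries. Bcl2l2, a guardian also known as Bcl-w, measured 34.6 ± 3.11 CPM without and 40.5 ± 4.66 CPM with miR-106b in polyA RNA (adjusted p = 0.181 in edgeR), and Bad, a BH3-only gene under growth factor control, was at 42.0 ± 1.42 and 39.7 ± 8.93 CPM (adjusted p = 0.719 in edgeR). Hrk had 16 counts over all polyA control libraries and 8 over all polyA miR-106b libraries. The near-identical paralogs Bcl2a1a, Bcl2a1b and Bcl2a1d, between which reads may be split, had at most 3 counts in any library, and Bcl2l10 had 0 in all.

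Downstream of the mitochondria, 3 of 11 apoptosome and caspase genes rose and 2 fell in polyA RNA, a share near the 40.5% called among all tested genes (19% higher and 21.5% lower). Apaf1, the scaffold of the apoptosome, was among those that fell, with a log2 value of -0.58 (adjusted p = 0.0027, edgeR). Endog, a mitochondrial nuclease, and Dffa, the inhibitor of the caspase-activated DNase, rose by 0.83 and 0.75 on the log2 scale. Of 8 inhibitors of apoptosis and their antagonists 0 rose and 3 fell, again near the 40.5% called among all genes, led by Birc5 (survivin, also a mitotic protein) at -1.82 and Birc6 at -0.67. Of 9 death receptor and adaptor genes tested out of 10, 1 rose and 2 fell, beside the same 40.5%: Tnfsf10, the ligand TRAIL, rose by 1.20, and Casp8, which cleaves Bid, and Tnfrsf10b, the TRAIL receptor, fell with values of -0.84 and -0.70.

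Of 12 regulators of BH3-only and anti-apoptotic proteins, 11 were tested, 2 rose and 5 fell in polyA RNA, beside 19% higher and 21.5% lower among all tested genes (40.5% in all). Dynll2, the light chain that tethers Bmf, rose by 0.79 on the log2 scale (adjusted p = 0.00090 in edgeR), and Fbxw7, a ubiquitin ligase subunit that targets Mcl1, rose by 0.44. Trp53, which encodes the p53 that drives Bbc3 and Pmaip1, fell with a value of -1.03 on that scale, for which edgeR gave an adjusted p of 0.00068, and Usp9x, a deubiquitinase of Mcl1, fell with -0.82. These changes stand beside the cardiac level given above, and its part in them was not tested.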

How the data were processed

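Whole-number read counts per gene for 16 libraries were deposited by the authors in 1 table; they had removed ribosomal RNA reads, aligned the rest to GRCm38 (Ensembl) with TopHat2 (version 2.0.10 in the submitters' processing notes) and counted with HTSeq, without strand or molecular identifiers. Here, genes with at least 1 CPM in 3 of 4 replicates of any group were kept (14897 of 46078), and TMM-scaled counts were tested with edgeR 4.0.16 (robust quasi-likelihood test, R 4.3.3) within polyA or Ago2-IP libraries and, for the ratio, in 1 model of all 16. Benjamini-Hochberg adjustment ran over all tested genes, with a threshold of 0.05. Printed fitted values use a prior count of 0.125. Exact permutation tests were two-sided, on log2(CPM + 1). Each replicate is a separate culture. DESeq2 1.42.0, other scalings, filters and left-out libraries were alternatives. The model was also run on simulated counts in which few genes changed. The polyA data changed broadly, so that run does not check the model for such a change. Sites were read from GENCODE M21 transcripts (GRCm38), and microRNAs from RefSeq. Gene identifiers follow the deposited table; 197 genes in it had no symbol.

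All 10 members are named. Of the 5 lists of other apoptosis genes (further BCL2 family with Vdac2 and Mtch2, apoptosome and caspases, inhibitors of apoptosis and antagonists, death receptors and adaptors, and regulators), at most the 2 largest rises and 2 largest falls among called genes are named, with the further BH3-only and multidomain genes at any value. Genes most like Bmf are those with the highest Pearson correlation of log2 CPM. Marker lists covered cardiac muscle, juxtaglomerular and mural cells, endothelium, and leukocytes and blood. The members and lists were chosen with earlier results of these data known. Replicate numbers were not used to pair the samples in the main tests. The values of 1 gene that the rule would name are not reported here.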

Additional observations from a re-analysis of the deposited data

Results flagged for a closer look

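Among 40 groups of 4 libraries (10 members in 4 groups), 2 had a library that stood apart from the other 3 by Dixon's criterion, and chance flags about 1 in 20 groups. Bax in polyA control replicate 4 measured 88.7 CPM, below the other 3 control libraries, with a gap of 0.843 of the group's range. Without that library the fall of Bax in polyA RNA was larger, at -0.55 on the log2 scale (adjusted p = 0.0043 in edgeR). Mcl1 in Ago2-IP miR-106b replicate 3 measured 157.9 CPM, with a gap of 0.87 of the group's range below the other 3.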

How the results depend on the processing

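Bid fell in polyA RNA in all 17 alternatives, from -1.62 to -1.09 on the log2 scale. The number of members called there, 4, was 3 to 4 across other settings and ranged from 1 to 4 with a library left out. Bak1 lost its call with DESeq2 size factors (adjusted p = 0.0916), with no filter (0.174), in DESeq2's Wald test (0.0689) and with all 16 libraries in 1 edgeR fit (0.169). For the change of the Ago2-IP to polyA ratio the count of 0 became 1 with library size only (Bax), 1 with TMM within each RNA kind (Bax), 1 in the likelihood ratio test (Bid) and 2 with no filter (Bax and Bid), and ranged from 0 to 1 with a library left out; Bax at 0.44 without polyA control replicate 4 and Bid at 1.39 without polyA miR-106b replicate 3 or 1.36 without Ago2-IP miR-106b replicate 3 were called, whereas Bid was at 0.67 (adjusted p = 0.384 in edgeR) without Ago2-IP miR-106b replicate 4. The median ratio change of all genes moved from -0.07 to 0.10 with library size only. Members with a seed match went from 5 to 8 once 6mers, held by 42.0% of genes, were counted.

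Values near 0 changed sign. Bcl2 in polyA RNA was 0.049 with DESeq2 size factors, 0.048 in its Wald test, 0.11 with all 16 libraries, and -0.091 to 0.10 with a library left out; Mcl1 was 0.057, 0.056, 0.11 and -0.063 to 0.11 under the same settings, and 0.0037 with no filter. With a library left out, Ago2-IP values ranged from -0.044 to 0.23 for Bmf, -0.14 to 0.076 for Bcl2l11, -0.037 to 0.081 for Bax, -0.077 to 0.048 for Bak1, -0.48 to 0.19 for Bid, -0.062 to 0.10 for Bbc3 and -0.11 to 0.74 for Pmaip1, the ratio change of Bcl2l1 from -0.014 to 0.085, and Ago2-IP against polyA of Bcl2l11 from -0.25 to 0.022. The cause of these moves was not tested.

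Same-numbered control and miR-106b libraries of the same RNA kind showed little sign of pairing. The correlations of their deviations lay between -0.13 and 0.26 in polyA and between -0.42 and -0.01 in Ago2-IP RNA. Of the miR-106b libraries, 1 of 4 polyA and 0 of 4 Ago2-IP libraries correlated best with their own number. Numbers were not compared between polyA and Ago2-IP libraries. With the replicate number as a block, 3 members in place of 4 were called in polyA RNA (Bak1 at 0.0806 in edgeR), and over all genes 2576 rose and 2935 fell in place of 2836 and 3198. Low counts limit Pmaip1 in all groups and Bid in Ago2-IP RNA.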
